A study of Populus yunnanensis and Populus davidiana with 24 samples.

Results

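Fresh stem cuttings of Populus davidiana were compared with fresh stem cuttings of Populus yunnanensis, both at 0 h, before the later samplings of the series at 48, 96 and 120 h. The tested set was chosen by a threshold on abundance alone: of 43836 genes in the deposited table, 20538 reached 1 FPKM or more in 3 or more of these 6 libraries. FPKM counts fragments relative to transcript length and to all mapped fragments, which is meant to set genes of different length and libraries of different depth side by side. The P. davidiana group held 3 libraries and the P. yunnanensis group held 3, out of 24 libraries over 2 species and 4 times. Per the labels, the RNA came from stems of cuttings made from annual branches in good growth, stripped of buds and leaves, and no genotype, clone or further treatment is named. Nothing in the labels says that replicates came from separate plants, so the tests weigh the species against library-to-library spread that could be technical.

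P. davidiana is an aspen, and P. yunnanensis is a balsam-type poplar of a different section of the genus. Stem cuttings of aspens are known to root poorly, whereas those of balsam poplars and cottonwoods root readily, and the title of the series names differences in rooting. The stem of a leafless cutting holds bark, phloem, cambium and wood, and adventitious roots arise from cells in or near the cambium. The comparison asked how the stems differed in gene expression at the start of the time course. The table lists genes by identifier and pairs none with a name, so tissue markers, WOX genes and other lists by function were not analysed here, and the genes below are given by identifier with no role. In whole stems, fewer cells of a type and less RNA per cell cannot be told apart.

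The libraries of the comparison differed in relative depth and in spread. The number of fragments is unknown, but the most frequent ratio of low values between libraries gave relative depths of 0.961, 0.715 and 0.809 in P. davidiana replicates 1 to 3, against 1 (by definition), 1.11 and 1.02 in P. yunnanensis replicates 1 to 3 (two-sided exact permutation p = 0.1 for the difference in means, the smallest that 3 libraries against 3 can give). A gene was at 1 FPKM or more in 18663 ± 457 cases per P. davidiana library and 20198 ± 1131 per P. yunnanensis library (SD, n = 3 each; two-sided exact permutation p = 0.2). Across the tested genes, log2(FPKM + 1) correlated at 0.936 to 0.968 between P. davidiana replicates, at 0.844 to 0.878 between P. yunnanensis replicates and at 0.675 to 0.715 between the species. The median SD per gene on that log2 scale was 0.30 in P. davidiana and 0.48 in P. yunnanensis, and the P. yunnanensis SD was the larger in 70.3% of genes. No 2 replicates held identical values. The summed FPKM was not equal, at 719725 ± 3862 per P. davidiana library and 769427 ± 18190 per P. yunnanensis library (SD, n = 3 each; two-sided exact permutation p = 0.1).

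Close to 3 in 10 genes of the fresh stems differed in FPKM between the species. Both species were listed on the same gene models, and how well the reads of each align to them was not analysed here. A gene whose reads align less well in one species cannot be told apart from one expressed less. At an adjusted p under 0.05 in limma, a linear model fitted across all genes, 6067 of 20538 genes differed (29.5%). Of these, 2791 were higher in P. davidiana (13.6%) and 3276 were lower (16.0%). The differences that passed were mostly large. On the log2(FPKM + 1) scale, 2416 genes were higher and 3088 lower by 1 or more. By 2 or more, 801 were higher and 1590 lower. By 4 or more, which is 16-fold in FPKM + 1, 99 were higher and 243 lower. Genes called higher differed by a median of 1.52 and genes called lower by a median of -1.97 on the log2 scale. The 3 libraries of one species lay entirely above or below the 3 of the other in 9550 genes (46.5%), which covers 6061 of the 6067 calls.

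The median difference over all tested genes was 0.00075 on the log2 scale, and no scaling tried moved it by over 0.1. Which direction held more genes turned with the processing all the same. Quantile normalization gave 3391 higher and 3062 lower, rescaling to TPM gave 3125 higher and 3018 lower, and a filter of 5 FPKM gave 2227 higher and 2052 lower. The number of calls fell to 3979, 3301 and 3648 without P. davidiana replicate 1, 2 and 3, and it was 9389 when all 24 libraries shared 1 spread.

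**Figure D1:**
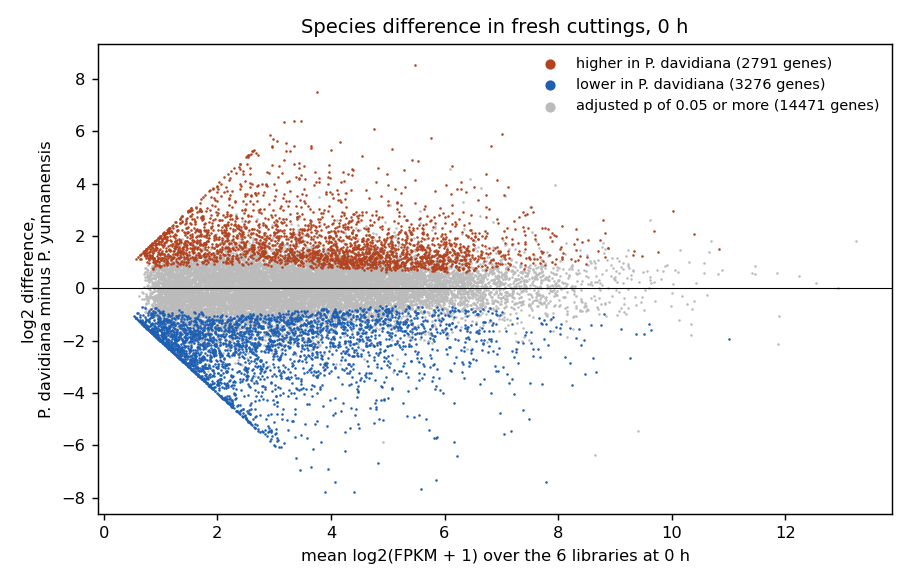
Each point is 1 of 20538 genes, with its mean log2(FPKM + 1) over the 6 libraries at 0 h on the x axis and the log2 difference, P. davidiana minus P. yunnanensis, on the y axis. The 2791 genes higher in P. davidiana and the 3276 lower ones are coloured, and the straight lower-left and upper-left edges are genes near 0 in one species.

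A gene that missed the threshold was seldom shown to be alike in both species. The 95% confidence interval of the difference in log2(FPKM + 1) lay within 1 either way in 3119 genes (15.2% of those tested). That is 2-fold in FPKM + 1, and low genes within it can differ by more in FPKM. Of the 14471 genes not called, 11352 (78.4%) had an interval that reached beyond 1 on that scale. With a median SE of 0.36 on the log2 scale, smaller differences were not detectable in most genes.

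Counts by detection and by abundance are given as a description, since a gene that passed the filter through one species alone had to differ, and in the direction of that species. Among the 14883 genes at 1 FPKM or more in all 6 libraries, 1898 were higher in P. davidiana and 1552 lower, 23.2% in all. The other 5655 genes, among which such genes lie, fell under 1 FPKM in at least 1 library, and no direction is read from them. By abundance, the least abundant group of 5135 tested genes, with a median of 2.14 FPKM, held 12.2% higher and 25.0% lower. The most abundant group of 5135, with a median of 55.7 FPKM, held 17.6% higher and 10.3% lower. The least abundant group also holds the genes that one species alone carried over the filter. The shares are for the values as deposited, and the P. davidiana libraries had the lower relative depths. The part of the filter, the scaling and the relative depth in the shares was not tested.

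Among genes detected in all 6 libraries, those with the widest gap between the species were named, 2 in each direction. Potri.010G146400.v3.1 had 345, 383 and 324 FPKM in the P. davidiana libraries, against 15.0, 13.1 and 11.03 FPKM in the P. yunnanensis libraries. The groups lay far apart, with means of 351 ± 30.1 FPKM in P. davidiana and 13.04 ± 1.98 FPKM in P. yunnanensis (SD, n = 3 each), a 26.9-fold ratio and a log2 difference of 4.65 (SE 0.21, limma adjusted p = 0.000116). Potri.010G172600.v3.1, also on chromosome 10 by its identifier, had 310, 180 and 272 FPKM in P. davidiana, against 8.16, 7.04 and 7.40 FPKM in P. yunnanensis. Its log2 difference was 4.87 (SE 0.26, limma adjusted p = 0.000156), and its P. yunnanensis libraries were the more even.

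In the other direction the gaps were wider. Potri.011G110200.v3.1 had 19.4, 11.7 and 18.3 FPKM in P. davidiana, against 3640, 2628 and 2475 FPKM in P. yunnanensis. It was the transcript with the 12th highest mean in P. yunnanensis stems and ranked 7434th in P. davidiana stems, with a log2 difference of -7.39 (SE 0.30, limma adjusted p = 0.000116). Potri.015G128300.v3.1 had 2.83, 1.66 and 2.73 FPKM in P. davidiana, against 933, 786 and 432 FPKM in P. yunnanensis. All 3 libraries were low in P. davidiana and high in P. yunnanensis, and the means of 2.41 ± 0.647 and 717 ± 257 FPKM (SD, n = 3 each) gave a log2 difference of -7.67 (SE 0.34, limma adjusted p = 0.000116).

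**Figure D2:**
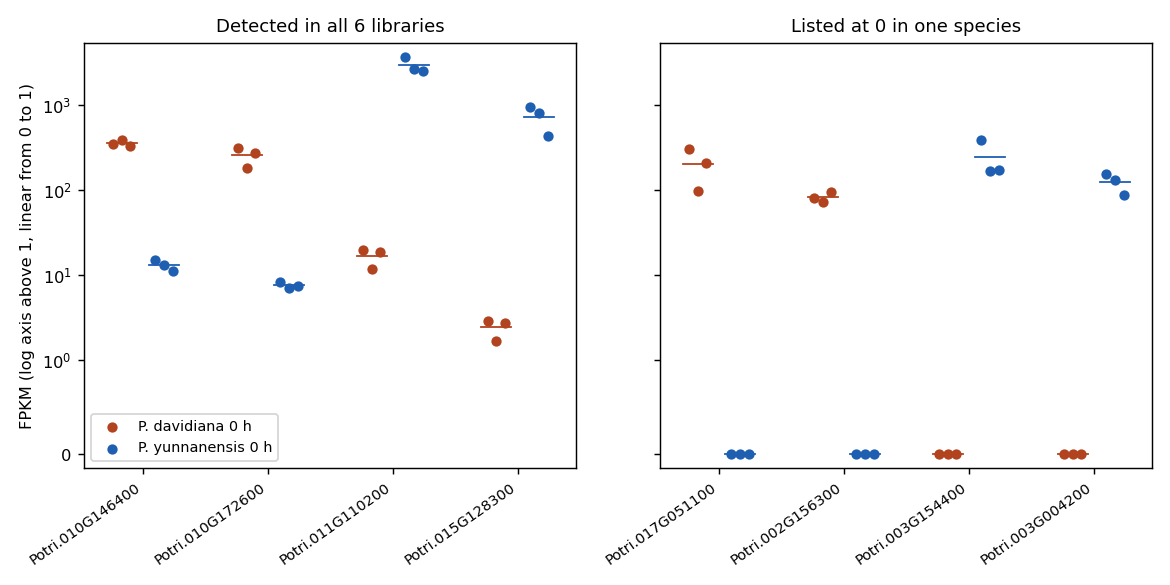
FPKM in each of the 6 libraries at 0 h (points) and the group mean (lines), P. davidiana left of P. yunnanensis for each gene, on an axis that is logarithmic above 1 and linear from 0 to 1. In the left panel both species have values above 1 and do not overlap, and in the right panel all 3 libraries of one species are at 0.

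A further set of genes was listed at 0 in all 3 libraries of one species and at 1 FPKM or more in all 3 of the other. There were 442 genes at 0 in P. davidiana (1.01% of the table) and 88 at 0 in P. yunnanensis (0.201%). Their levels in the species that had them were mostly low, with a median of 4.89 FPKM in P. yunnanensis for the genes at 0 in P. davidiana, and of 3.84 FPKM in P. davidiana for those at 0 in P. yunnanensis. With a minimum of 5 FPKM in the other species, 118 and 23 genes were left, and with 20 FPKM, 17 and 8. The P. davidiana libraries had the lower relative depths and held more genes at 0 in general. The means were 19937 ± 498 genes at 0 per P. davidiana library and 17376 ± 701 per P. yunnanensis library (SD, n = 3 each, two-sided exact permutation p = 0.1). The part of depth in the counts of this set was not tested. The alignment rate of either species to these gene models was not analysed here, and a gene that is lost or too divergent to align cannot be told apart from one that is silent.

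Part of these genes stayed at 0 at the later times, and the same share over all genes at 0 in the 0 h libraries was not analysed here. Of the 442 genes at 0 in P. davidiana, 213 (48.2%) were at 0 in all 12 libraries of that species, and 12 reached 1 FPKM in 3 or more of its later libraries. Of the 88 genes at 0 in P. yunnanensis, 32 (36.4%) were at 0 in all 12, and 4 reached 1 FPKM in 3 or more later libraries. The genes with the highest minimum in the other species were named.

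Potri.017G051100.v3.1 had 301, 97.5 and 205 FPKM in P. davidiana at 0 h and 0 in each of the P. yunnanensis libraries. It averaged 82.6, 20.01 and 16.5 FPKM at 48, 96 and 120 h in P. davidiana, and reached at most 0.343 FPKM in a later P. yunnanensis library. Potri.002G156300.v3.1 had 80.6, 71.6 and 93.2 FPKM in P. davidiana at 0 h and was listed at 0 in P. yunnanensis. Unlike the first gene it was seen in P. yunnanensis later, at 2.51 to 8.20 FPKM at 96 h, against 86.3 to 184 FPKM in P. davidiana at that time.

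Potri.003G154400.v3.1, at 0 in each P. davidiana library at 0 h, had 385, 166 and 169 FPKM in P. yunnanensis. Over the later times it reached at most 0.46 FPKM in a P. davidiana library, against 116 to 376 FPKM in P. yunnanensis. Potri.003G004200.v3.1 was listed at 0 in P. davidiana and had 155, 130 and 86.7 FPKM in P. yunnanensis. No P. davidiana library had a value above 0 for it at 48 or 96 h either, while its mean in P. yunnanensis was 56.8, 28.4 and 25.3 FPKM at 48, 96 and 120 h.

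The most abundant transcripts were partly shared between the species. Of the 100 genes with the highest mean FPKM in P. davidiana, 51 were also among the 100 highest in P. yunnanensis, and 4 of the highest 10 were shared. Of the 100 highest in P. davidiana, 23 were called higher there and 1 lower, and of the 100 highest in P. yunnanensis, 2 were called higher in P. davidiana and 30 lower. That direction follows from how the 2 lists were ranked and is given as a description. The 10 most abundant genes took 9.55%, 8.74% and 7.53% of the summed FPKM in the P. davidiana libraries, against 6.28%, 18.8% and 13.1% in the P. yunnanensis libraries (two-sided exact permutation p = 0.4 for the means).

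Potri.002G202300.v3.1 was the most abundant transcript of P. davidiana stems, at 19559, 19080 and 16142 FPKM, against 5645, 7285 and 3488 FPKM in P. yunnanensis. The groups did not overlap, and the log2 difference was 1.80 (SE 0.88, limma adjusted p = 0.169). The call depended on how the variance was modelled: the limma adjusted p was 0.00849 with no trend of the variance on the mean and 0.0122 with 1 spread over all 24 libraries, within a range of 0.00849 to 0.388 over all alternatives. Potri.010G142600.v3.1, ranked 2 by mean in P. davidiana and 5 in P. yunnanensis, had 8425, 7579 and 7787 FPKM in P. davidiana, against 7759, 7731 and 7835 FPKM in P. yunnanensis. The groups overlapped, and the 95% confidence interval of the log2 difference of 0.027 ran from -1.79 to 1.84. That interval draws part of its spread from other genes of like abundance, through the variance trend. The libraries of this gene were even, with SDs of 441 FPKM in P. davidiana and 54.1 FPKM in P. yunnanensis (n = 3 each).

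The 2 most abundant transcripts by mean in P. yunnanensis varied widely among its own libraries. Potri.013G100800.v3.1 had 85.9, 140 and 88.9 FPKM in P. davidiana, against 75.9, 40153 and 29641 FPKM in P. yunnanensis. Potri.013G100700.v3.1, next to it in the numbering of chromosome 13, had 34.9, 52.6 and 43.7 FPKM in P. davidiana, against 64.4, 30172 and 24583 FPKM in P. yunnanensis. In both genes P. yunnanensis replicate 1 stood near the P. davidiana libraries and replicates 2 and 3 stood far above all others.

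Potri.013G101000.v3.1, singled out after its values were seen, also lies close by in the numbering and had 2622, 2942 and 2258 FPKM in P. davidiana, against 3.98, 20144 and 9906 FPKM in P. yunnanensis. Here replicate 1 was far below every P. davidiana library and replicates 2 and 3 were above all of them. The 3 genes together made up 0.383%, 0.436% and 0.330% of the summed FPKM in P. davidiana libraries, against 0.0190%, 11.4% and 8.43% in P. yunnanensis libraries. Whether reads could align to more than 1 of these genes was not tested.

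None of the 3 genes was called at 0 h as fitted on the 6 libraries, and the call of the first 2 depended on the fit. The log2 differences were -5.45 (SE 2.22, limma adjusted p = 0.108) for Potri.013G100800.v3.1 and -6.37 (SE 2.19, limma adjusted p = 0.0666) for Potri.013G100700.v3.1. Without P. yunnanensis replicate 1 they were -8.38 and -9.27, each with a limma adjusted p of 0.000854. With 1 spread over all 24 libraries the limma adjusted p was 0.00371 for Potri.013G100800.v3.1 and 0.000902 for Potri.013G100700.v3.1, and with library weights per group it was 0.0368 for Potri.013G100700.v3.1. For Potri.013G101000.v3.1 the sign turned, at 1.38 (SE 2.90, limma adjusted p = 0.75) with all libraries and -2.45 without that replicate (limma adjusted p = 0.0384). At 48 h, where P. yunnanensis libraries lay between 7673 and 9704 FPKM and P. davidiana libraries between 66.8 and 140 FPKM, Potri.013G100800.v3.1 differed by -6.51 on the log2 scale (SE 0.37, limma adjusted p = 1.80e-05).

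**Figure D3:**
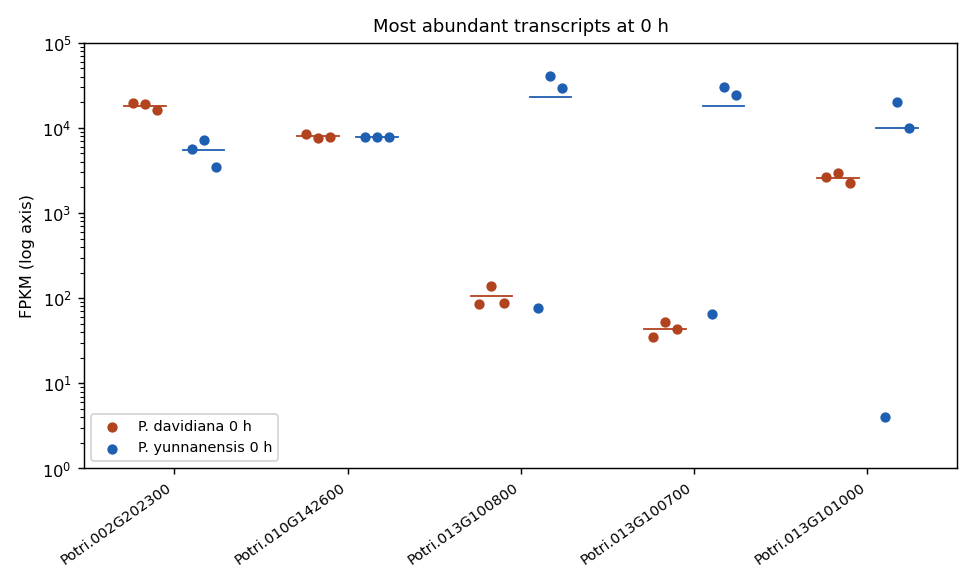
FPKM on a log axis in each library at 0 h (points) and the group mean (lines), P. davidiana left of P. yunnanensis, for the 2 most abundant genes of each species and Potri.013G101000.v3.1. The 3 genes of chromosome 13 have 1 low P. yunnanensis library, at 75.9, 64.4 and 3.98 FPKM, and 2 high ones.

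By class of identifier, the genes that differed were not spread evenly. Of 19671 tested genes with a chromosome number, 2642 were higher in P. davidiana and 2986 lower, 28.6% in all. Of 538 tested genes on unplaced scaffolds, 101 were higher and 157 lower (48.0%). Of 329 tested loci named MSTRG, a prefix given to loci assembled from reads, 48 were higher and 133 lower (55.0%). These loci had a median of 3.09 FPKM and those on scaffolds 5.16 FPKM, against 11.1 FPKM for genes with a chromosome number, and the part of abundance in the shares was not tested. Loci named MSTRG also made up 58 of the 442 genes listed at 0 in P. davidiana and 10 of the 88 listed at 0 in P. yunnanensis, beside 886 of the 43836 genes in the table (2.02%).

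Among the 19 chromosome numbers, the share of tested genes called lay between 26.4% on chromosome 15 and 33.3% on chromosome 17, around the 29.5% of all genes. The share higher in P. davidiana ran between 11.3% on chromosome 12 and 16.2% on chromosome 4, and the share lower between 12.9% on chromosome 4 and 18.4% on chromosome 19, around the 13.6% and 16.0% of all genes. On chromosome 4, 179 genes were higher and 143 lower. Chromosomes 6 and 11 also had slightly more genes higher than lower, and the other 16 had more lower than higher. These splits are for the values as deposited and are read no further, since the balance over all genes turned with scaling.

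The later libraries, which share none with the 0 h comparison, were used to see whether the species differences were found again. At 48 h 15.9% of all tested genes were higher in P. davidiana and 22.3% lower. Of the 2640 genes higher at 0 h that were tested at 48 h, 1820 were higher again (68.9%, and 56.3% of all genes higher at 48 h), and 10 were lower. Of 2926 genes lower at 0 h, 2327 were lower again (79.5%, and 51.1% of all genes lower at 48 h), and 8 were higher. The log2 differences at the 2 times had a Pearson r of 0.833 over 19269 genes, which share gene models and species and are not independent.

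The share found again was smaller at 96 and 120 h than at 48 h for genes higher at 0 h, whereas for genes lower at 0 h it was highest at 96 h. At 96 h, where 16.5% of genes were higher and 35.2% lower, 1571 of 2595 genes were higher again (60.5%) and 2520 of 3014 lower again (83.6%). At 120 h, where 19.5% were higher and 34.7% lower, 1533 of 2621 were higher again (58.5%) and 2328 of 2989 lower again (77.9%). The Pearson r over genes was 0.726 at 96 h and 0.645 at 120 h, and of the genes called at both 0 and 120 h, 68 higher and 92 lower in P. davidiana at 0 h had the opposite direction at 120 h.

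Among 18835 genes tested at all 4 times, 1220 of the 2539 higher in P. davidiana at 0 h were higher at every later time (48.1%), and 580 at none (22.8%). Of the 2838 lower at 0 h, 1988 were lower at every later time (70.0%) and 279 at none (9.83%). Over all 18835 genes, whatever their call at 0 h, 1901 were higher at every later time (10.1%) and 3296 were lower (17.5%), so lower calls at all later times were the more frequent in any case. The difference between the directions was not tested, and the counts moved with scaling: with quantile normalization 2251 genes were higher and 2113 lower at both 0 and 96 h, and 2046 and 2006 at both 0 and 120 h. Without P. davidiana replicate 2 at 0 h, the genes called in the same direction at 0 h and a later time numbered 2590, 2467 and 2357 at 48, 96 and 120 h, against 4147, 4091 and 3861 with all libraries.

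Each of the 4 genes with the widest gaps was called in the same direction at all later times. Potri.015G128300.v3.1 kept its difference, at -8.24, -7.81 and -7.81 on the log2 scale at 48, 96 and 120 h (limma adjusted p at most 1.27e-05). Potri.010G172600.v3.1 differed by 5.54, 4.68 and 6.32 at these times (limma adjusted p at most 0.000135). Potri.010G146400.v3.1 differed by 3.20, 3.27 and 3.14, with P. davidiana means of 435, 387 and 323 FPKM against P. yunnanensis means of 46.2, 39.2 and 36.4 FPKM. Potri.011G110200.v3.1 differed by -6.17, -4.25 and -4.07, as its mean reached 122, 358 and 424 FPKM in P. davidiana and 8508, 7926 and 7303 FPKM in P. yunnanensis.

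**Figure D4:**
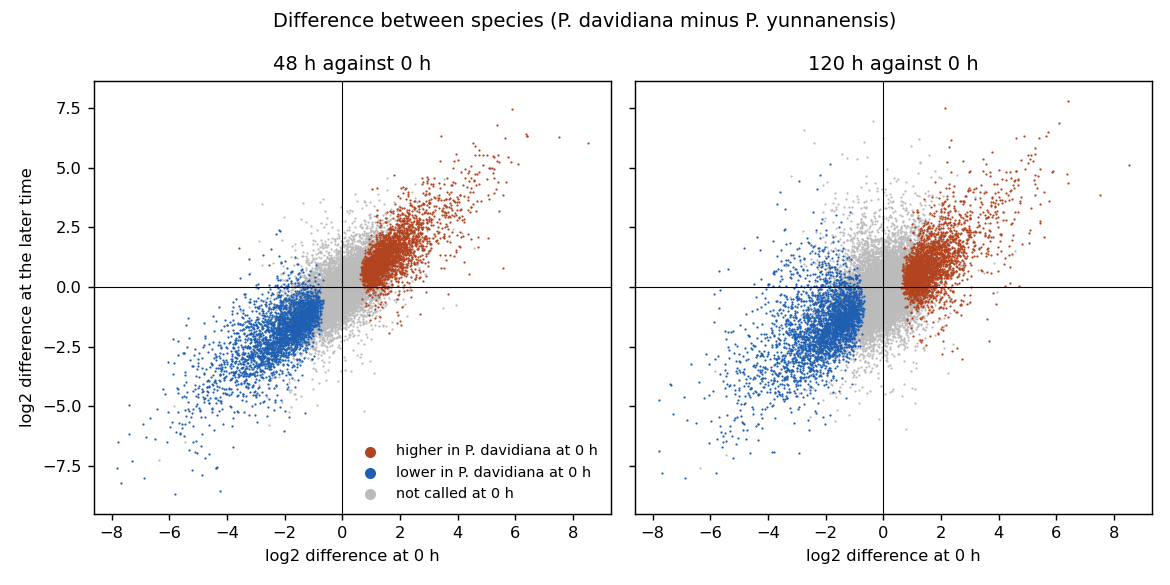
Log2 difference between the species (P. davidiana minus P. yunnanensis) at 48 h (left) and 120 h (right) against that at 0 h, 1 point per gene, coloured by the call at 0 h. The points run along the diagonal at 48 h (Pearson r 0.833) and scatter more at 120 h (0.645).

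Whether the species difference at 0 h departed from the later ones was tested as the species difference at 0 h minus the mean species difference at 48, 96 and 120 h, over all 24 libraries with the spread weighted by group. At an adjusted p under 0.05 in limma, 1399 of 20538 genes passed (6.81%), 783 with a contrast above 0 (3.81%) and 616 below 0 (3.00%). Of these, 751 also differed between the species at 0 h, which is 12.4% of the genes that did, and 648 were not called at 0 h. By the estimates alone, whether called or not, the species difference had the opposite sign at later times in 690 of the 1399. It was larger at 0 h in 449 and smaller in 260.

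These counts were unsteady, and in simulated data this test made more false calls than its nominal level. The contrast had a median of 0.21 on the log2 scale over all tested genes as deposited and of -0.028 with median ratio scaling, which gave 513 genes above 0 and 931 below. More genes were also below than above 0 with quantile normalization (750 and 835), without P. yunnanensis replicate 2 (563 and 679) and without P. davidiana replicate 3 (536 and 547). The count fell to 499 without P. yunnanensis replicate 1 and to 871 without replicate 3, and was 3082 with no weights.

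The contrast sets the change of one species against that of the other, so the medians below follow from the choice of genes and are a description. Where it was above 0, the median change between 0 h and the mean of the later times was -0.40 on the log2 scale in P. davidiana and 1.06 in P. yunnanensis. Where it was below 0, the median change was 0.71 in P. davidiana and -1.36 in P. yunnanensis. Over all tested genes these medians were 0.037 and 0.25.

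Potri.T052100.v3.1, on an unplaced scaffold, had 21.4, 9.95 and 9.97 FPKM in P. davidiana at 0 h, against 8.25, 1.70 and 9.88 FPKM in P. yunnanensis. The groups almost met and were not called at 0 h (log2 difference 1.10, SE 0.59, limma adjusted p = 0.205). Later the order was turned round, at 5.68, 2.05 and 1.28 FPKM in P. davidiana at 48, 96 and 120 h, against 79.04, 47.2 and 68.6 FPKM in P. yunnanensis. The contrast was 5.25 (SE 0.53, limma adjusted p = 2.34e-05). Potri.010G152000.v3.1 had 14.0, 20.8 and 34.03 FPKM in P. davidiana at 0 h, against 0, 0.438 and 2.99 FPKM in P. yunnanensis, a log2 difference of 3.65 (SE 0.58, limma adjusted p = 0.00461). By 120 h P. davidiana averaged 43.9 ± 20.2 FPKM and P. yunnanensis 217 ± 116 FPKM (SD, n = 3 each), and the contrast was 5.001 (SE 0.91, limma adjusted p = 0.00278).

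Below 0, Potri.001G391300.v3.1 had 0.243, 0 and 0.385 FPKM in P. davidiana at 0 h, against 29.3, 6.44 and 11.9 FPKM in P. yunnanensis, a log2 difference of -3.57 (SE 0.52, limma adjusted p = 0.00334). At 120 h it averaged 85.4 ± 30.3 FPKM in P. davidiana and 4.599 ± 2.70 FPKM in P. yunnanensis (SD, n = 3 each), and the contrast was -6.52 (SE 0.71, limma adjusted p = 4.73e-05). Potri.007G111800.v3.1 had 0.858, 0 and 0.408 FPKM in P. davidiana at 0 h, against 38.2, 2.96 and 1.45 FPKM in P. yunnanensis, whose replicate 1 stood far above the others. The gene was not called at 0 h (log2 difference -2.39, SE 0.97, limma adjusted p = 0.107). Only P. yunnanensis replicate 1 lay above the 5 FPKM asked of a species mean for naming. Its contrast of -6.06 (SE 1.51, limma adjusted p = 0.0191) was not called without that library, when limma gave an adjusted p of 0.145, the highest over its alternatives, which began at 0.00458.

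**Figure D5:**
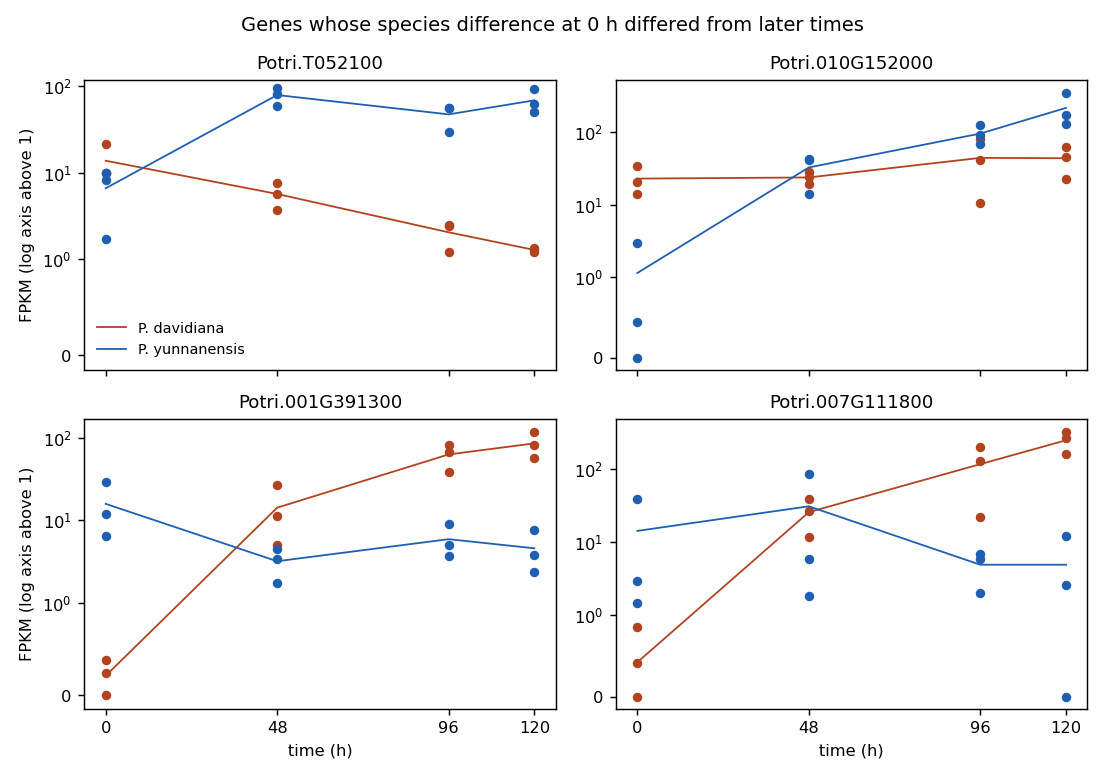
FPKM by time in each library (points) and the group mean (lines) for the 4 genes named by the contrast of 0 h with later times, on an axis that is logarithmic above 1 and linear below. In each panel the line of one species crosses that of the other between 0 and 96 h.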

How the data were processed

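The authors deposited 1 table of FPKM values, per the file headers, with 1 column per library. For aligner, counting program and build alike, the name was not given in the sources used here. Apart from the loci named MSTRG, identifiers had the form Potri with the ending v3.1, and both species were listed under the same identifiers. Titles gave species, time and replicate, and every column was assigned to a library.

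Genes at 1 FPKM or more in at least 3 of the 6 libraries at 0 h were compared by limma 3.58.1 (R 4.3.3) as log2(FPKM + 1), with a variance trend and Benjamini-Hochberg adjustment over all 20538 genes. The spread was taken from these 6 libraries alone, since the P. yunnanensis ones varied more than the other groups. This scale understates differences of low genes. Each later time was fitted alike on its own 6 libraries. The contrast of 0 h with later times used all 24 libraries and group weights. Both fits were tested on simulated data with unequal spread between groups, in which a small set of genes was raised in P. davidiana at 0 h. The mean size of the changes put in was recovered. The share of false calls tended to lie above the nominal level, more so in the contrast, so adjusted p-values near the threshold are optimistic. That share need not carry over in size, since far more genes differed in the real data. Relative depth came from values of 0.05 to 0.3 FPKM. Figures were drawn with matplotlib 3.10.9.

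The comparison, the tests and the rules for naming genes were chosen with earlier results of these data known. Named genes, 2 per direction, had the widest gap between species among called genes at 1 FPKM or more in all 6 libraries, the highest minimum opposite a species at 0, the largest contrast (at 5 FPKM or more, without overlap at 0 h), or the highest mean in a species. Alternatives covered the pseudocount, filters, scaling, variance model, a replicate block, all 24 libraries and leaving out each library.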

Additional observations from a re-analysis of the deposited data

Results flagged for a closer look

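Among the named genes, 8 had a species difference at 0 h that differed from the mean of the later times, by the test of that difference in limma (P. davidiana minus P. yunnanensis, contrast on the log2 scale). The contrast was above 0 for Potri.T052100.v3.1 (5.25), Potri.010G152000.v3.1 (5.001), Potri.017G051100.v3.1 (2.73, adjusted p = 0.0162) and Potri.010G146400.v3.1 (1.45, adjusted p = 0.00188). It was below 0 for Potri.001G391300.v3.1 (-6.52), Potri.007G111800.v3.1 (-6.06), Potri.011G110200.v3.1 (-2.56, adjusted p = 0.0389) and Potri.003G004200.v3.1 (-1.85, adjusted p = 0.00274). The first 2 of each list were named for this contrast, so their size is no independent result. The other 4 were named for their values at 0 h, so a smaller difference at later times also follows from how they were chosen. Their species difference had the same sign at 0 h and later, and its mean over the later times was 4.78 for Potri.017G051100.v3.1, 3.20 for Potri.010G146400.v3.1, -4.83 for Potri.011G110200.v3.1 and -5.08 for Potri.003G004200.v3.1.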

How the results depend on the processing

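The count of genes that differed at 0 h was 3301 to 6243 without 1 library, 9389 when all 24 libraries shared 1 spread and 4279 to 6453 in the other settings, all with more lower than higher genes except for the filter of 5 FPKM, quantile normalization and TPM scaling. The 4 genes with the widest gaps kept their direction and call in all 17 alternatives each. They were chosen from these same libraries for being called with a wide gap, so this largely follows from the choice. The contrast of 0 h with later times gave 3082 genes without weights and 499 to 1242 without 1 library. Genes at 0 in P. davidiana numbered 118 with a minimum of 5 FPKM in the other species and 520 to 592 without 1 library, and genes at 0 in P. yunnanensis 23 and 97 to 119. By their definition, these counts can only stay or rise without a library, and only stay or fall with a higher minimum. Genes called in the same direction at 0 h and later numbered 2590 to 4182 at 48 h, 2467 to 4221 at 96 h and 2357 to 3922 at 120 h without 1 library. The difference of Potri.010G142600.v3.1 turned to -0.010 with median ratio scaling and ran from -0.017 (without P. davidiana replicate 1) to 0.059 without 1 library, and that of Potri.013G101000.v3.1 from -2.45 (without P. yunnanensis replicate 1) to 3.55; the cause was not tested. With the replicate number as a block, 5273 genes differed at 0 h and 1694 passed the contrast. Libraries of the same number deviated with correlations of -0.111, 0.168 and 0.0665, and 1 of 3 P. davidiana libraries correlated best with its own number. So few libraries cannot show whether those of the same number share more than the number. Depth is known only in relative terms, and genes near 0 in one species are the least certain.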

Other observations

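Genes that follow each other in the numbering of a chromosome tended to share a direction at 0 h. Over 10253 pairs of successive identifiers with both tested, the second gene was lower in P. davidiana in 15.1% of all pairs and in 22.8% of the 1531 pairs whose first gene was lower. It was higher in 13.6% of all pairs and in 16.5% of the 1369 pairs whose first gene was higher. The longest run of successive identifiers called in 1 direction held 4 genes, and there were 3 such runs higher and 4 lower in P. davidiana. These shares were not tested, since genes are not replicates.

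The spread within P. yunnanensis at 0 h went beyond the 3 genes of chromosome 13. Of the 20538 tested genes, 23 in P. davidiana and 221 in P. yunnanensis had libraries of 1 group at least 4 apart in log2(FPKM + 1). That is 16-fold in FPKM + 1, a scale that understates differences of low genes. On that scale, a single P. yunnanensis library stood as far above both others in 15, 0 and 5 genes (replicates 1 to 3). It stood as far below both in 13, 17 and 1 genes. In P. davidiana these numbers were 3, 0 and 1 above, and 2, 0 and 0 below.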
